A study of Dichomitus squalens with 16 samples.

Results

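The white-rot fungus Dichomitus squalens was compared with itself after 16 and after 9 days of growth on cotton seed hulls. The 4 libraries were chosen by their labels alone, 2 for each day, out of 16 libraries in the series, and the change with time was followed across all genes. All libraries came from strain LYAD-421 SS1, precultured for 4 days at 28 °C in a low-nitrogen asparagine-succinate medium with 6.8 mM glycerol. A 4 ml portion of homogenised mycelium was then added to 100 ml of the medium holding 1 g of plant material, which here was powdered cotton seed hulls, and RNA was taken from the mycelium together with the substrate it had colonised. The other 12 libraries came from spruce or aspen sawdust and from wheat bran at the same days, 2 for each substrate and day. Nothing in the labels says whether the 2 libraries of a day came from separate flasks. The p-values below rest on the spread between libraries of the same group, pooled over all 16 libraries, and that spread may be technical. Each value is a level per amount of RNA: a change in the number of cells and a change in RNA per cell cannot be told apart.

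White-rot fungi are basidiomycetes that degrade cellulose, hemicelluloses, pectin and lignin with secreted hydrolases, lytic polysaccharide monooxygenases and peroxidases, and take up the released sugars. Their hyphae are coated with hydrophobins, small secreted proteins that assemble at the surface between water and air. Oxalate, formate and hydrogen peroxide are made and broken down during lignin degradation by this class of fungi.

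The 2 day 9 libraries held 8846266 and 8425224 uniquely mapped reads in tested genes and the 2 day 16 libraries 8093187 and 8536544. Reads were found for 11250 genes in at least 1 of them. The 100 most abundant genes of a library took 32.79% and 32.85% of its reads on day 9 and 39.92% and 39.2% on day 16. Replicates differed by more than counting noise on both days: chi-square over its degrees of freedom was 2.26 on day 9 and 6.47 on day 16. Over all 8 groups of the fit it ran from 1.62 (wheat bran day 16) to 27.4 (aspen day 9), with 25.6 for spruce day 9. On cotton seed hulls the day 16 figure fell to 1.83 without 10 short gene models of 150 to 603 bases. The set was taken by scaffold (3 scaffolds) rather than by length, and was chosen after the values were seen. These 10 models took 0.809% and 0.825% of the reads of the day 9 libraries, 3.79% of day 16 replicate 1 and 2.13% of day 16 replicate 2. All 10 were called higher on day 16, with log2 fold changes of 1.81 to 2.65, but replicate 1 lay 1.16 to 2.56 times above replicate 2. DICSQDRAFT_73523, which has no described function, stood at 6249.6 and 6203 RPKM on day 9 and at 33595 and 13131 RPKM on day 16. DICSQDRAFT_73518, named after the checkpoint kinase CHK1 and annotated as partial, moved from 6819 and 7017 RPKM to 32939 and 13788 RPKM. Its call was lost without day 9 replicate 2 (log2 2.01) and with the 4 cotton seed hull libraries alone (log2 1.97, adjusted p = 0.143). DICSQDRAFT_73523 lost its call in the fit of the 4 libraries too (log2 2.13, adjusted p = 0.144). So did the short models DICSQDRAFT_73526 (log2 1.89, adjusted p = 0.152) and DICSQDRAFT_73601 (log2 1.77, adjusted p = 0.169). DICSQDRAFT_73518, DICSQDRAFT_73523, DICSQDRAFT_73526 and DICSQDRAFT_73601 also lost their calls with only the wheat bran libraries added (adjusted p from 0.0544 to 0.0802). Without day 16 replicate 1 the log2 value of DICSQDRAFT_73601 was 0.99. The RefSeq gene list held 1 of the 10 models, and the source of their reads was not tested.

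Between day 9 and day 16 a large minority of the genes changed, mostly by less than 2-fold. RPKM is the read count scaled by gene length and library size, and tests were edgeR quasi-likelihood tests on read counts, scaled by trimmed means of M values (TMM), over all 16 libraries with Benjamini-Hochberg adjustment over 10584 genes. A gene was called at an adjusted p under 0.05. By that rule 3003 genes (28.4%) changed, of which 1660 (15.7%) were higher and 1343 (12.7%) lower on day 16. At least 2-fold changes were called for 329 higher genes (3.11%) and 327 lower genes (3.09%). The median log2 fold change was 0.61 among the higher genes and -0.62 among the lower ones. Without day 16 replicate 1 the calls came to 890 higher and 909 lower, without day 9 replicate 2 to 877 and 921, and without the short gene models to 1656 and 1339.

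The split between directions depended on the scaling. With library size alone the median log2 fold change of all genes moved from 0.03 to -0.22, and 760 genes were called higher and 3024 lower, so that 20.1% of the called genes were higher instead of 55.3%. RPKM is scaled by library size, and TMM raised the log2 fold changes by a median of 0.25 above it. A gene with equal RPKM on both days therefore has a fitted log2 fold change near that value, and 5660 genes (53.5%) had lower RPKM in both day 16 libraries than in both day 9 libraries, against 1986 (18.8%) with higher RPKM. Directions given below held under both scalings unless stated. Counts in gene lists below stand beside 15.7% higher and 12.7% lower over all genes. With library size alone they stand beside 760 higher and 3024 lower of 10584 tested genes.

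**Figure D1:**
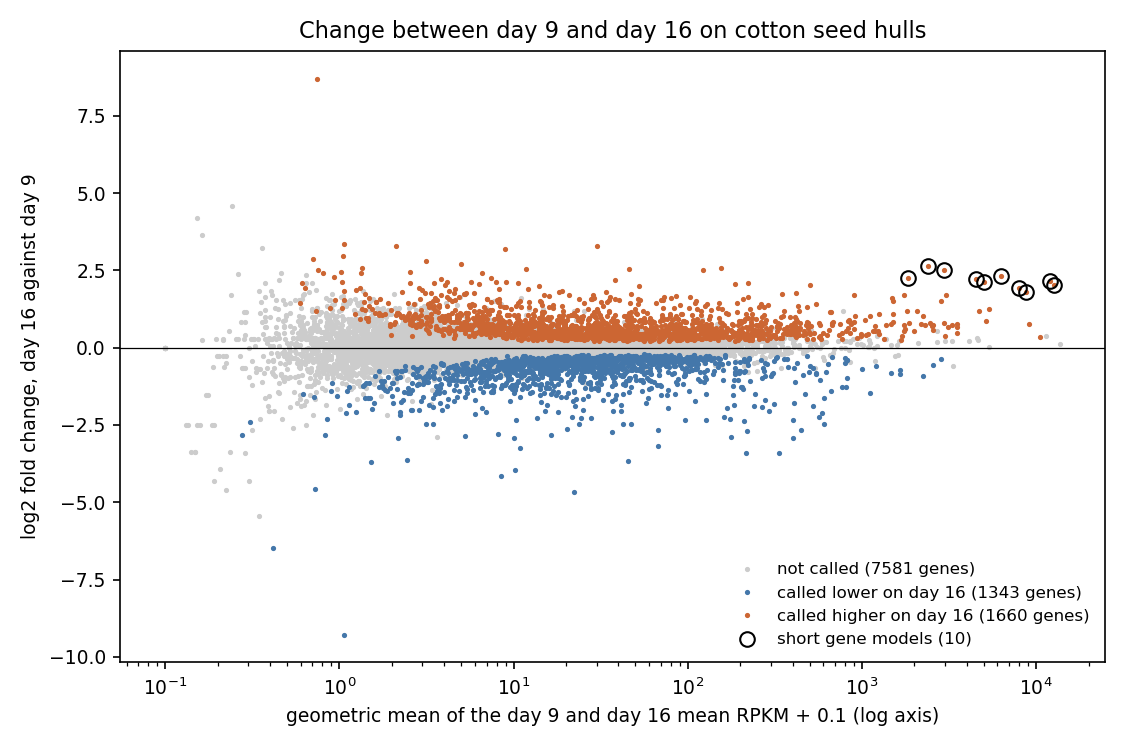
Log2 fold change from day 9 to day 16 (vertical axis) against the geometric mean of the day means of RPKM plus 0.1 (horizontal log axis) for the 10584 tested genes, 1 point per gene, with the 10 short gene models circled. Called genes lie on both sides at all but the lowest levels, the circled models stand apart at the top right, and the extreme points at low RPKM are genes with 0 reads on 1 of the days.

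Hydrophobins fell. Of 15 tested hydrophobin genes 8 fell and 1 rose, with a median log2 fold change of -1.45 against 0.03 over all genes. The summed level of the list was 4799 ± 55 RPKM on day 9 and 2689 ± 81.3 RPKM on day 16 (SD, n = 2). DICSQDRAFT_167756 was read at 1196 and 1173 RPKM on day 9 and at 87.5 and 100.4 RPKM on day 16. The log2 fold change was -3.40 ± 0.28 (SE, adjusted p = 1.57e-05). The days did not overlap, but that was a condition for naming the largest changes, and 53.5% of all genes were lower without overlap. DICSQDRAFT_54466 went from 487 and 565 RPKM to 68.0 and 51.2 RPKM, a log2 fold change of -2.89 ± 0.21 (adjusted p = 1.70e-06). DICSQDRAFT_55052 went from 176 RPKM in both day 9 libraries to 12.4 and 11.1 RPKM (log2 -3.66 ± 0.52, adjusted p = 0.000875). The low-level member DICSQDRAFT_62768 went from 36.3 and 39.6 RPKM to 2.92 and 0.691 RPKM (log2 -4.14 ± 0.36, adjusted p = 3.08e-07).

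The other called hydrophobins were lower too, except for the most abundant. DICSQDRAFT_54693 stood at 1015 and 966 RPKM on day 9 and at 170.2 and 159 RPKM on day 16 (log2 -2.34 ± 0.52, adjusted p = 0.0102), and its call was lost without either day 16 library (adjusted p = 0.0636 and 0.0667). DICSQDRAFT_184249 and DICSQDRAFT_101659 fell by 1.77 and 1.11 on the log2 scale. The scarce DICSQDRAFT_62647, under 5 RPKM in all 4 cotton seed hull libraries, had a log2 fold change of -1.45 (adjusted p = 0.0462), which missed the threshold when any 1 of the 4 libraries was left out. These 3 were chosen after their values were seen, to complete the called genes of the family. The most abundant member moved the other way: hydrophobin-315 DICSQDRAFT_62584 was read at 1569 and 1513 RPKM on day 9 and at 2161 and 2297 RPKM on day 16, and rose by 0.78 ± 0.10 on the log2 scale (adjusted p = 1.87e-05), a call lost with limma on log2(RPKM + 0.1) (adjusted p = 0.052). It was the most abundant hydrophobin on both days. DICSQDRAFT_54693, DICSQDRAFT_167756 and DICSQDRAFT_101659 are neighbours in the RefSeq gene order and formed 1 of 5 runs of at least 3 adjacent genes that all changed at least 2-fold in the same direction.

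**Figure D2:**
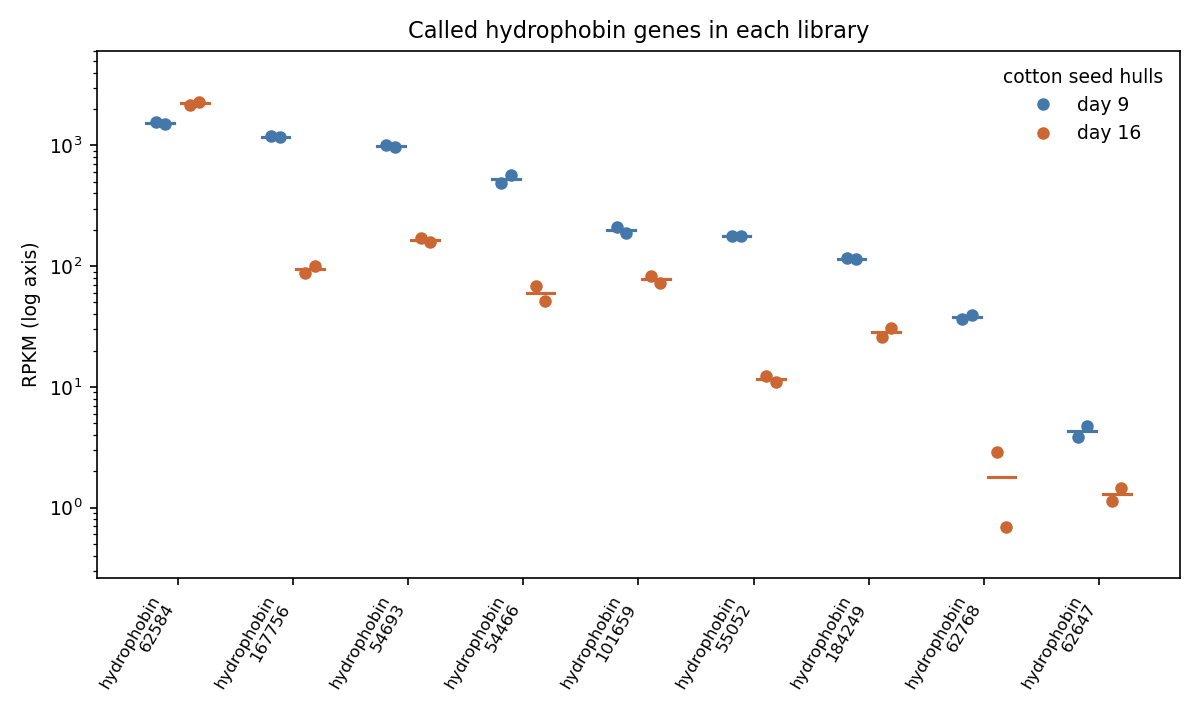
RPKM (log axis) of the 9 hydrophobin genes called on cotton seed hulls, with both libraries of day 9 in blue and of day 16 in orange and the day mean as a line. In 8 genes both day 16 points lie below both day 9 points, as in 53.5% of all tested genes. In DICSQDRAFT_62584 the day 16 points lie above.

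Genes of mating and development fell as well. This list holds STE3-type receptors, the G-protein-coupled receptors for mating pheromones, and ricin B-like lectins, carbohydrate-binding proteins often found in fruiting bodies. Of its 11 tested members 6 fell and none rose, with a median log2 fold change of -0.67. The most abundant STE3 receptor, DICSQDRAFT_156468, was read at 1209 and 1127 RPKM on day 9 and at 306 and 322 RPKM on day 16, a log2 fold change of -1.64 ± 0.13 (adjusted p = 8.51e-08). Its neighbour DICSQDRAFT_156469 fell from 227 and 209.7 RPKM to 55.4 and 56.1 RPKM (log2 -1.72 ± 0.16, adjusted p = 2.58e-06), and a further receptor, DICSQDRAFT_109349, by 1.36 on the log2 scale. DICSQDRAFT_156468 and DICSQDRAFT_109349 were chosen after their values were seen. The ricin B-like lectin DICSQDRAFT_172724 stood at 1379 and 1233 RPKM on day 9 and at 421 and 489 RPKM on day 16 (log2 -1.27 ± 0.14, adjusted p = 6.82e-06). In none of these 4 genes did the days overlap, which was also so for the 53.5% of all genes with lower RPKM.

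Enzymes that attack crystalline cellulose fell from levels that were moderate on day 9. Cellobiohydrolases release cellobiose from the chain ends of cellulose. The list of that name also takes in genes described as oligoxyloglucan-specific, and 4 of its 6 genes fell while 1 rose. Cellobiohydrolase II DICSQDRAFT_152125 was read at 755 and 856 RPKM on day 9 and at 374 and 368 RPKM on day 16 (log2 -0.87 ± 0.15, adjusted p = 6.00e-04). Cellobiohydrolase I DICSQDRAFT_131122 fell more steeply, from 191 and 251 RPKM to 20.5 and 20.6 RPKM (log2 -3.18 ± 0.31, adjusted p = 6.87e-05), and its paralogue DICSQDRAFT_96488 from 127 and 159 RPKM to 71.1 and 71.3 RPKM (log2 -0.75 ± 0.15). The days did not overlap in any of the 3, beside 53.5% of all genes that were lower without overlap. Of the oligoxyloglucan-specific cellobiohydrolases, which are named after a hemicellulose rather than cellulose, DICSQDRAFT_130877 fell by 0.67 and DICSQDRAFT_183908 rose by 0.34 on the log2 scale. The call of DICSQDRAFT_183908 was lost with library size alone, with both limma fits and when any library but day 16 replicate 2 was left out (adjusted p from 0.103 to 0.209). Another cellobiohydrolase I, DICSQDRAFT_100956, stayed under 5 RPKM and was not called.

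Lytic polysaccharide monooxygenases and cellobiose dehydrogenase were lower too, while beta-glucosidases moved both ways. Lytic polysaccharide monooxygenases, copper enzymes that cut cellulose oxidatively and were formerly classed as glycoside hydrolase family 61, had 2 of 3 genes lower. DICSQDRAFT_108020 fell from 58.6 and 61.5 RPKM to 24.9 and 22.2 RPKM (log2 -1.10 ± 0.13, adjusted p = 1.76e-05), DICSQDRAFT_166212 fell by 2.02 on the log2 scale from about 5 RPKM, and DICSQDRAFT_140533 had a log2 value of -0.41 that did not pass. The single gene for cellobiose dehydrogenase, which can supply electrons to these monooxygenases, DICSQDRAFT_153749, fell from 54.0 and 56.3 RPKM to 23.2 and 26 RPKM (log2 -0.91 ± 0.13, adjusted p = 0.00011). Among 6 beta-glucosidases, which split cellobiose to glucose, 1 fell and 1 rose. DICSQDRAFT_176390 fell by 1.10 on the log2 scale and DICSQDRAFT_151017 rose by 0.70, from 17.3 and 16.0 RPKM to 22.3 and 23.2 RPKM, while the most abundant, DICSQDRAFT_64087, did not pass the test (log2 -0.21 ± 0.17, adjusted p = 0.408).

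Endoglucanases, which cut within the cellulose chain, were mixed. Of 9 tested genes 3 fell and 2 rose, and the list includes abundant barwin-like proteins whose activity on cellulose is not given by their description. Glycoside hydrolase family 12 member DICSQDRAFT_125489 fell from 125 and 116 RPKM to 58.4 and 55.7 RPKM (log2 -0.83 ± 0.18, adjusted p = 0.00392). The barwin-like DICSQDRAFT_49028 rose from 2759 and 2658 RPKM to 3492 and 3663 RPKM (log2 0.65 ± 0.13, adjusted p = 0.00115). A gene described as an endo-beta-1,4-glucanase but outside the list, DICSQDRAFT_147873, was among the largest rises, from 29.1 and 28.7 RPKM to 104 and 87.8 RPKM (log2 1.98 ± 0.15, adjusted p = 5.28e-08).

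Apart from the oligoxyloglucan-specific DICSQDRAFT_130877 above, hemicellulose and pectin genes as lists did not follow the cellobiohydrolases. None of 2 xylanases and none of 7 xylan side-chain enzymes was called. Xylanase C DICSQDRAFT_133555 was read at 99.6 and 97.6 RPKM on day 9 and at 96.2 and 95.3 RPKM on day 16 (log2 0.21 ± 0.10, adjusted p = 0.122), and the CEL4a mannanase DICSQDRAFT_132822 at 219 and 213 RPKM and then at 204 and 199.6 RPKM (log2 0.15 ± 0.10, adjusted p = 0.288). The signs of these 2 uncalled values turned with library size alone. An alpha-galactosidase, which removes galactose side groups, DICSQDRAFT_75292, rose from 116 and 107 RPKM to 223 RPKM in both libraries (log2 1.26 ± 0.08, adjusted p = 8.07e-09). Of 9 pectinases 5 rose and 1 fell, with a median log2 fold change of 0.59. With library size alone 3 rose and 1 fell.

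The most abundant pectinase was endo-polygalacturonase PG1 DICSQDRAFT_154984, which cuts the polygalacturonan backbone, at 366 and 368 RPKM on day 9 and at 546 and 526 RPKM on day 16 (log2 0.80 ± 0.21, adjusted p = 0.018). Its call was lost with library size alone (log2 0.55, adjusted p = 0.0783), with both limma fits and when any 1 of the 4 libraries was left out (adjusted p from 0.0729 to 0.118). The pectin lyase-like DICSQDRAFT_61616 rose from 40.1 and 32.9 RPKM to 57.7 and 61.8 RPKM (log2 0.96 ± 0.12, adjusted p = 2.00e-05). The rhamnogalacturonase DICSQDRAFT_143747, chosen after its values were seen as the only pectinase that fell, went from 26.1 and 26 RPKM to 13 and 11 RPKM (log2 -0.87 ± 0.17, adjusted p = 0.00128). Enzymes of starch, glycogen and trehalose, mostly acting on the glucose stores of the fungus itself or on starch, had 9 of 24 genes higher and 3 lower, or 5 and 4 with library size alone. Alpha-amylase DICSQDRAFT_84199 rose by 0.56 on the log2 scale, from 591 and 576 RPKM to 732 and 712 RPKM, and trehalose-phosphate synthase DICSQDRAFT_52775, which makes the precursor of trehalose, by 1.47.

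**Figure D3:**
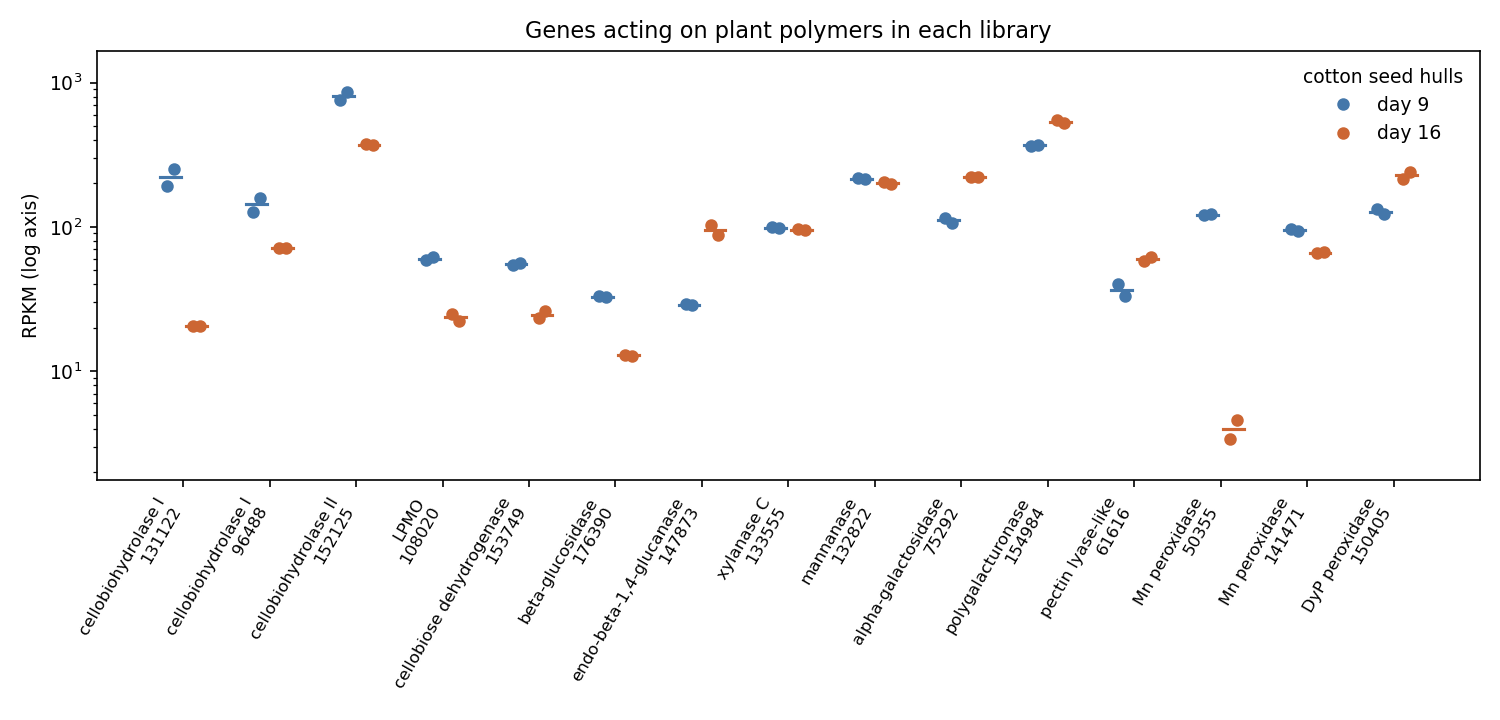
RPKM (log axis) of 15 genes acting on cellulose, hemicellulose, pectin or lignin, with both libraries of day 9 in blue and of day 16 in orange and the day mean as a line. Cellobiohydrolases, the LPMO (lytic polysaccharide monooxygenase) and cellobiose dehydrogenase lie lower on day 16, while alpha-galactosidase, polygalacturonase and the DyP peroxidase lie higher.

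Of the ligninolytic peroxidases, a single manganese peroxidase fell. Manganese peroxidases oxidise manganese ions that diffuse into lignin. DICSQDRAFT_50355 was read at 120.0 and 122 RPKM on day 9 and at 3.39 and 4.61 RPKM on day 16, a log2 fold change of -4.66 ± 0.50 (adjusted p = 0.000138). It was the only 1 of 12 class II peroxidases to be called, and with library size alone 4 were called lower. The next most abundant member, DICSQDRAFT_141471, stood at 96.3 and 93.7 RPKM on day 9 and at 65.6 and 67.1 RPKM on day 16 (log2 -0.27 ± 0.20, adjusted p = 0.369). The other 10 members stayed under 20 RPKM. Of 7 other peroxidases 2 fell and 1 rose, with a median log2 fold change of -0.10. The heme peroxidase DICSQDRAFT_131684 and the chloroperoxidase-like DICSQDRAFT_113070, chosen after their values were seen, fell by 0.77 and 0.46 on the log2 scale, the latter losing its call without day 16 replicate 2 (adjusted p = 0.0506). The dye-decolorising (DyP) peroxidase DICSQDRAFT_150405, a heme enzyme of another family, rose from 132 and 122 RPKM to 216 and 239 RPKM (log2 1.09 ± 0.17, adjusted p = 0.000122).

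Oxidases that make hydrogen peroxide showed no shared direction. Of 34 GMC oxidoreductases, the family of alcohol and sugar oxidases, 6 rose and 7 fell, and with library size alone 3 rose and 11 fell. Alcohol oxidase DICSQDRAFT_181599, 1 of the most abundant genes of all 4 libraries, was read at 11007 and 10882 RPKM on day 9 and at 11634 and 12003 RPKM on day 16 and was not called (log2 0.36 ± 0.23, adjusted p = 0.281). The GMC oxidoreductase DICSQDRAFT_138769 rose from 22.8 and 19.0 RPKM to 98.2 and 106 RPKM (log2 2.54 ± 0.16, adjusted p = 4.93e-08). It lies next to the ketoacyl synthase domain gene DICSQDRAFT_156420, whose domain is typical of polyketide synthesis and which rose by 1.89, and to the undescribed DICSQDRAFT_148672, which rose by 2.56 from 71.5 and 68.2 RPKM to 341 and 352 RPKM. The main glyoxal oxidase, DICSQDRAFT_167685, stood at 1164 and 1176 RPKM and then at 1313 and 1221 RPKM and was not called (log2 0.37 ± 0.17, adjusted p = 0.127), whereas the scarcer DICSQDRAFT_104348 fell by 1.35. Laccases and multicopper oxidases are counted apart from the peroxide-making oxidases, and 2 of 12 rose. The multicopper oxidase DICSQDRAFT_180464 rose by 2.11 ± 0.13, from 6.03 and 5.05 RPKM to 19.9 and 20.2 RPKM, and the laccase DICSQDRAFT_179829 by 0.42. The laccase's call was lost with library size alone, DESeq2 and both limma fits and when any 1 of the 4 libraries was left out (adjusted p from 0.0983 to 0.114).

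Of 9 genes for oxalate and formate metabolism 3 fell and 1 rose. Formate dehydrogenase oxidises formate to carbon dioxide, and its main gene DICSQDRAFT_51840 went from 3621 and 3407 RPKM to 2285 and 2294 RPKM (log2 -0.37 ± 0.11, adjusted p = 0.0185). A second copy, DICSQDRAFT_169057, went from 318 and 441 RPKM to 49.3 and 86.4 RPKM (log2 -2.24 ± 0.68, adjusted p = 0.0397). Both calls were fragile: that of DICSQDRAFT_169057 was lost when any 1 of the 4 libraries was left out (adjusted p from 0.0720 to 0.206), and that of DICSQDRAFT_51840 when any but day 9 replicate 2 was (adjusted p from 0.0678 to 0.0801). The gene for glyoxylate dehydrogenase, an enzyme that oxidises glyoxylate to oxalate, DICSQDRAFT_183166, fell from 856 and 878 RPKM to 245 and 271 RPKM (log2 -1.50 ± 0.19, adjusted p = 0.000102). Isocitrate lyase DICSQDRAFT_112226, which releases glyoxylate, fell from 71.6 and 71.7 RPKM to 25.7 and 27 RPKM (log2 -1.19 ± 0.16, adjusted p = 8.77e-05). The oxalate decarboxylase DICSQDRAFT_100044 rose by 1.65, from 2.37 and 2.61 RPKM to 5.62 and 7.48 RPKM. DICSQDRAFT_183166 and DICSQDRAFT_100044 were chosen after their values were seen.

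Genes for the fungal cell wall rose more often than they fell. The list of chitin, glucan and other wall enzymes had 14 of 33 genes higher and 3 lower, and with library size alone 11 higher and 9 lower. Its median log2 fold change was only 0.07 against 0.03 over all genes, and -0.18 with library size alone. Exo-beta-1,3-glucanase DICSQDRAFT_49107, which trims the main wall glucan, was read at 116 and 118 RPKM on day 9 and at 422 and 413 RPKM on day 16, a log2 fold change of 2.09 ± 0.11 (adjusted p = 1.01e-09). The synthases of the 2 main wall polymers rose by less: the chitin synthases DICSQDRAFT_165065 and DICSQDRAFT_104531 by 0.76 and 0.97 and the 1,3-beta-glucan synthase DICSQDRAFT_49951 by 0.92 on the log2 scale, all 3 chosen after their values were seen. The glycoside hydrolase family 18 gene DICSQDRAFT_104474, of the chitinase family and likewise chosen afterwards, fell from 398 and 379 RPKM to 183 and 201 RPKM (log2 -0.76 ± 0.10, adjusted p = 4.06e-05).

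Sugar transporters rose more often than they fell. Of 29 sugar transporters 9 rose and 2 fell (37.9% called, against 28.4% of all genes), with 6 and 3 under library size alone. The most abundant, the monosaccharide transporter DICSQDRAFT_153259, rose from 1209 and 1261 RPKM to 1734 and 1918 RPKM (log2 0.81 ± 0.11, adjusted p = 4.22e-05). A phosphate transporter, DICSQDRAFT_152927, rose from 51.1 and 53.6 RPKM to 142 and 140.4 RPKM (log2 1.69 ± 0.12, adjusted p = 2.96e-08). The oligopeptide transporter DICSQDRAFT_94742 was the most abundant gene of the nitrogen uptake list and went from 3265 and 3486 RPKM to 6218 and 6739 RPKM (log2 1.19 ± 0.14, adjusted p = 1.19e-05), while its paralogue DICSQDRAFT_87422 fell from 400.2 and 364 RPKM to 90.9 and 87.0 RPKM (log2 -1.85 ± 0.37, adjusted p = 0.00568). The nitrogen uptake list as a whole had 11 of 73 genes higher and 14 lower (34.2% called), or 3 and 24 under library size alone. Other transporters of the major facilitator superfamily had 28 of 123 genes higher and 11 lower (31.7% called). That balance turned to 12 and 19 under library size alone.

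Proteases and lipases changed in both directions, and the steepest changes in both lists were falls. Of 159 tested proteases 29 rose and 26 fell (34.6% called, against 28.4% of all genes), and under library size alone 14 rose and 51 fell. Acid proteinase DICSQDRAFT_180308 fell from 592 and 620.5 RPKM to 86.4 and 72.5 RPKM (log2 -2.68 ± 0.39, adjusted p = 0.000989). The aspartic peptidase DICSQDRAFT_150052 and the metalloprotease DICSQDRAFT_135116 fell by 2.79 and 2.47 on the log2 scale. The Zn-dependent exopeptidase DICSQDRAFT_109032, which removes terminal residues from peptides, rose from 265 and 280.3 RPKM to 916 and 935 RPKM (log2 2.01 ± 0.11, adjusted p = 1.21e-09). The most abundant protease, the metalloprotease DICSQDRAFT_131350, went from 4329 and 4533 RPKM to 2478 and 2499.8 RPKM without passing the test (log2 -0.58 ± 0.26, adjusted p = 0.131). In the lipase and esterase list, with 30 of 113 higher and 12 lower (19 and 29 under library size alone), the alpha/beta-hydrolase DICSQDRAFT_49593 fell from 789 and 757 RPKM to 61.7 and 60.3 RPKM (log2 -3.41 ± 0.13, adjusted p = 4.73e-11) and DICSQDRAFT_159594 rose by 1.65.

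Genes of DNA replication fell more often than they rose. Of 31 genes for replication proteins and histones 10 fell and 2 rose, with a median log2 fold change of -0.20. A histone H3 gene, DICSQDRAFT_65256, went from 62.9 and 65.2 RPKM to 16.0 and 17.1 RPKM (log2 -1.70 ± 0.26, adjusted p = 0.000348), and the alpha subunit of ribonucleotide reductase, which makes deoxynucleotides, DICSQDRAFT_153784, fell by 1.21 on the log2 scale. Histone genes DICSQDRAFT_108935 (H3), DICSQDRAFT_137361 (H2A) and DICSQDRAFT_137367 (H2B) fell by 1.03, 1.42 and 0.62. These 3 histones and the reductase were chosen after their values were seen. The separate list of cell division and septin genes was mixed. It had 6 of 31 genes higher and 5 lower, with a median log2 fold change of 0.03 (-0.22 under library size alone). The largest fall in it was that of a cyclin, DICSQDRAFT_46400, a regulator of cell division. This gene went from 188 and 194 RPKM to 84.3 and 81.8 RPKM (log2 -0.95 ± 0.11, adjusted p = 7.76e-06).

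Of 17 proteasome genes 8 fell and none rose, with a median log2 fold change of -0.28, and all 17 were called lower under library size alone. The maturation factor UMP1, DICSQDRAFT_113392, went from 121 and 141 RPKM to 74 and 80.9 RPKM (log2 -0.50 ± 0.10, adjusted p = 0.00157). Ribosomal protein genes gave the opposite count, with 22 of 81 higher and none lower, but under library size alone 1 was higher and 15 were lower, so no direction is given for them. The most abundant of them, S25 DICSQDRAFT_135337, was read at 482 and 559 RPKM on day 9 and at 528 and 526 RPKM on day 16, and the days overlapped (log2 0.27 ± 0.09, adjusted p = 0.0324). Its call was lost with RLE size factors, library size alone (log2 0.02), DESeq2 and both limma fits, and when any library but day 9 replicate 2 was left out (adjusted p from 0.158 to 0.494), with a log2 value of 0.12 without day 9 replicate 1. Stress genes had no shared direction. Heat shock proteins and chaperones had 3 of 43 genes higher and 2 lower, with a median log2 fold change of 0.13 (-0.12 under library size alone). Antioxidant enzymes had 4 of 24 higher and 2 lower, with a median of 0.02 (-0.23 under library size alone). The small heat shock protein DICSQDRAFT_109568 went from 2528 and 2333 RPKM to 1115 and 1127 RPKM (log2 -0.86 ± 0.25, adjusted p = 0.026). That call was lost when any 1 of the 4 libraries was left out (log2 from -0.95 to -0.85). Catalase DICSQDRAFT_82531, which breaks down hydrogen peroxide, went from 3345 and 3403 RPKM to 1909 and 1953 RPKM (log2 -0.55 ± 0.12, adjusted p = 0.00173).

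**Figure D4:**
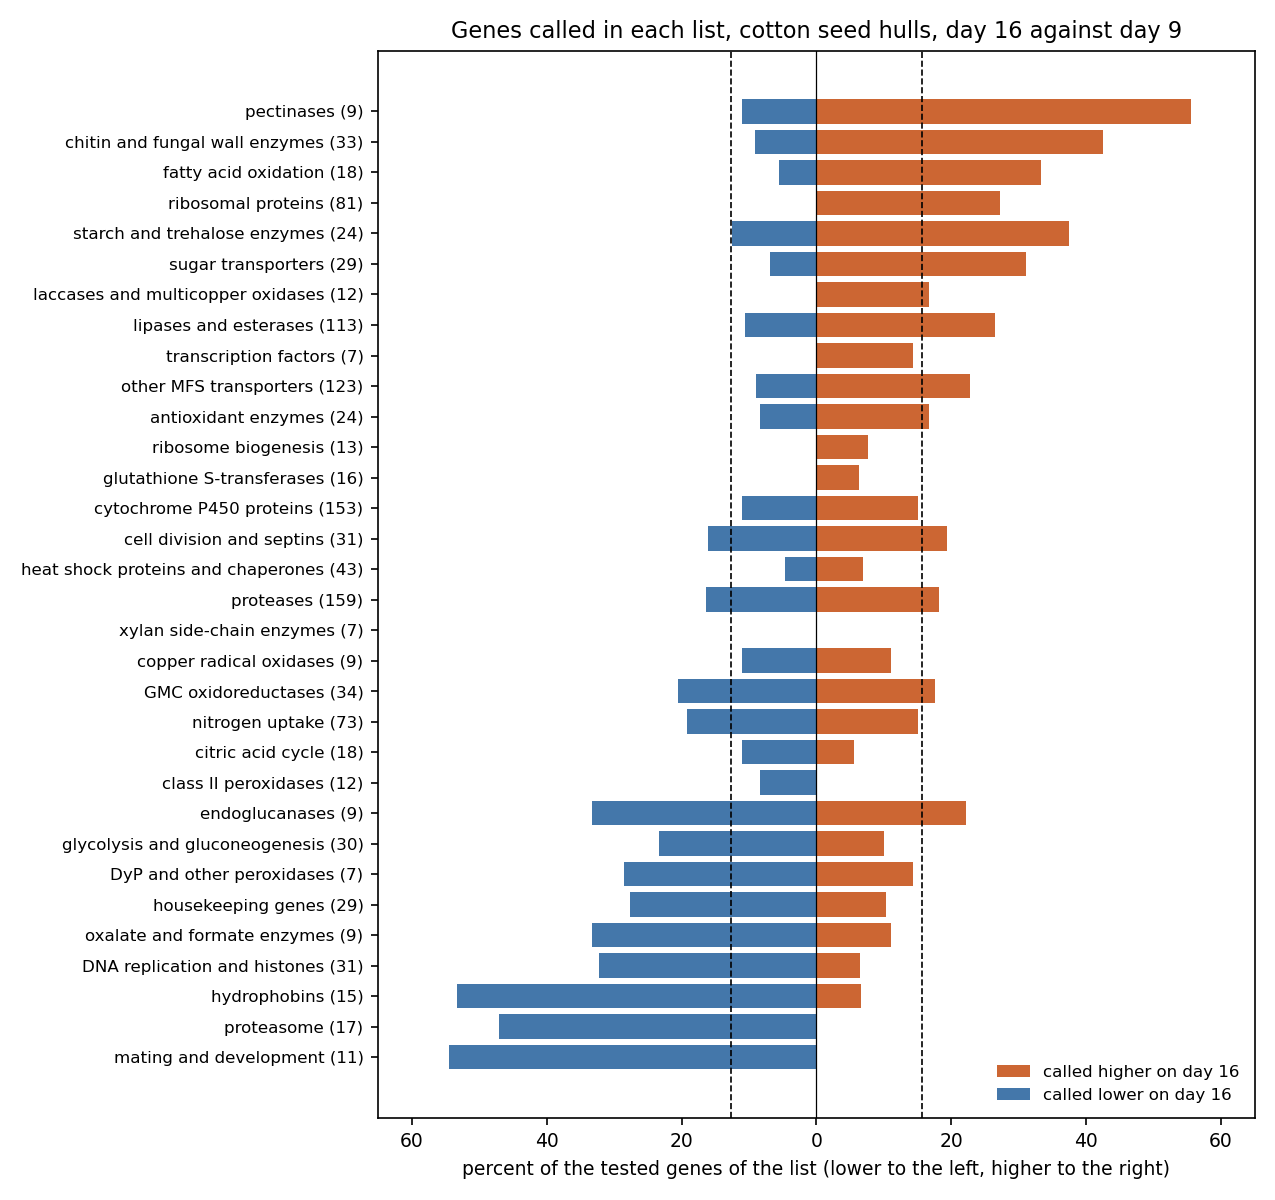
Percent of the tested genes of each list called lower (blue, to the left) or higher (orange, to the right) on day 16, for lists of at least 7 tested genes, with the number tested in brackets. The dashed lines mark all genes tested (12.7% lower, 15.7% higher), which mating genes, hydrophobins and proteasome pass farthest to the left and pectinases farthest to the right, and with library size alone the balance turned to lower for ribosomal proteins, lipases, proteases and other MFS transporters among others.

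Among genes with at least 10 RPKM on the higher day, the largest rises lay in genes with no described function. DICSQDRAFT_143398 was read at 10.7 and 10.4 RPKM on day 9 and at 85.6 and 86.5 RPKM on day 16 (log2 3.28 ± 0.12, adjusted p = 2.35e-11), and DICSQDRAFT_130479 rose by 3.19 from 3.29 and 3.07 RPKM to 25.2 and 23.8 RPKM. DICSQDRAFT_124697 had 133 reads over the 2 day 9 libraries and 0 over the 2 day 16 libraries, at least 35.9-fold lower with TMM scaling against a floor of 3 reads over the group, a bound that covers counting error only. The undescribed DICSQDRAFT_130212, chosen after its values were seen, had 0 reads in both day 9 libraries and 30 and 42 reads in the day 16 libraries. DICSQDRAFT_157655 fell from 42.6 and 43.7 RPKM to 1.80 and 2.77 RPKM (log2 -3.97 ± 0.57, adjusted p = 0.000563). Described genes with large rises outside the lists were the six-hairpin glycosidase DICSQDRAFT_86290 (log2 2.18), the ENTH domain protein DICSQDRAFT_77172 (1.72), a type of adaptor in vesicle formation, and the redoxin DICSQDRAFT_70492 (1.69). The FAD-dependent oxidoreductase DICSQDRAFT_157633 fell from 1129.6 and 1279 RPKM to 122 and 146 RPKM (log2 -2.92 ± 0.25, adjusted p = 6.76e-06). The longest run of neighbours that changed together had 4 undescribed genes, DICSQDRAFT_68877, DICSQDRAFT_183092, DICSQDRAFT_173781 and DICSQDRAFT_140237, all lower, with log2 fold changes of -1.17, -1.43, -1.97 and -1.24, of which that of DICSQDRAFT_173781 lost its call when any 1 of the 4 libraries was left out (adjusted p from 0.0587 to 0.253).

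The change with time on cotton seed hulls differed from that on wheat bran, the other substrate that is not wood, in 994 genes (9.39%) by the test of the difference between the day effects. That count was 538 to 643 when 1 cotton seed hull library was left out, lowest without day 16 replicate 1. Against spruce 3664 genes (34.6%) differed and against aspen 4927 (46.6%). Wheat bran had 1830 called genes of its own (17.3%). Of the 1660 genes higher on cotton seed hulls 588 (35.4%) were also higher on wheat bran, which is 60.9% of the 966 genes (9.13%) higher there, and 60 were lower. Of the 1343 lower genes 390 (29.0%) were also lower on wheat bran, 45.1% of the 864 (8.16%) lower there, and 38 were higher. Among the shared falls, the cellobiohydrolase I DICSQDRAFT_131122 had a log2 fold change of -2.92 on wheat bran, and the difference from cotton seed hulls was -0.25 ± 0.48 (adjusted p = 0.839). On spruce and aspen its values were 4.00 and 0.93.

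Hydrophobins separated the 2 substrates. The list's median log2 fold change was -1.45 on cotton seed hulls, 1.12 on wheat bran, 0.41 on spruce and -0.03 on aspen, and 9 of its 15 tested genes had a day effect below that on wheat bran (4.29% of all genes did). DICSQDRAFT_62768 fell by 4.14 on cotton seed hulls and rose by 4.54 on wheat bran, a difference of -8.68 ± 0.44 (adjusted p = 9.27e-09). For DICSQDRAFT_54466 the values were -2.89 and 3.65 (difference -6.54 ± 0.29, adjusted p = 2.64e-07), and for DICSQDRAFT_55052 they were -3.66 and 2.96 (difference -6.61 ± 0.65, adjusted p = 0.000345). Hydrophobin-315 DICSQDRAFT_62584 rose on both, by 0.78 and by 2.23 (difference -1.45 ± 0.14, adjusted p = 7.01e-06). The DyP peroxidase DICSQDRAFT_150405 rose by 1.09 on cotton seed hulls and fell by 1.31 on wheat bran, by 1.83 on spruce and by 1.22 on aspen.

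A stricter set of 345 genes (3.26%) was called on cotton seed hulls and differed in the same direction from each of the 3 other substrates, 142 higher (1.34%) and 203 lower (1.92%). Without day 16 replicate 1 the set held 199 genes, and without day 9 replicate 2 it held 206. The largest described rises in it were DICSQDRAFT_138769, DICSQDRAFT_49107, DICSQDRAFT_156420 and the phosphate transporter DICSQDRAFT_152927, whose log2 fold changes were -0.16 on wheat bran, -0.92 on spruce and -0.997 on aspen. The largest described falls were DICSQDRAFT_50355, DICSQDRAFT_62768, DICSQDRAFT_49593 and DICSQDRAFT_167756. For the manganese peroxidase DICSQDRAFT_50355 the fall on wheat bran was 1.74 on the log2 scale, and the difference of -2.92 ± 0.69 (adjusted p = 0.0299) lost its call when any 1 of the 4 cotton seed hull libraries was left out (adjusted p from 0.0690 to 0.129). The 3 STE3 receptors named above, the histone H3 gene DICSQDRAFT_65256, the cyclin DICSQDRAFT_46400 and the monosaccharide transporter DICSQDRAFT_153259 also belonged to this set.

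**Figure D5:**
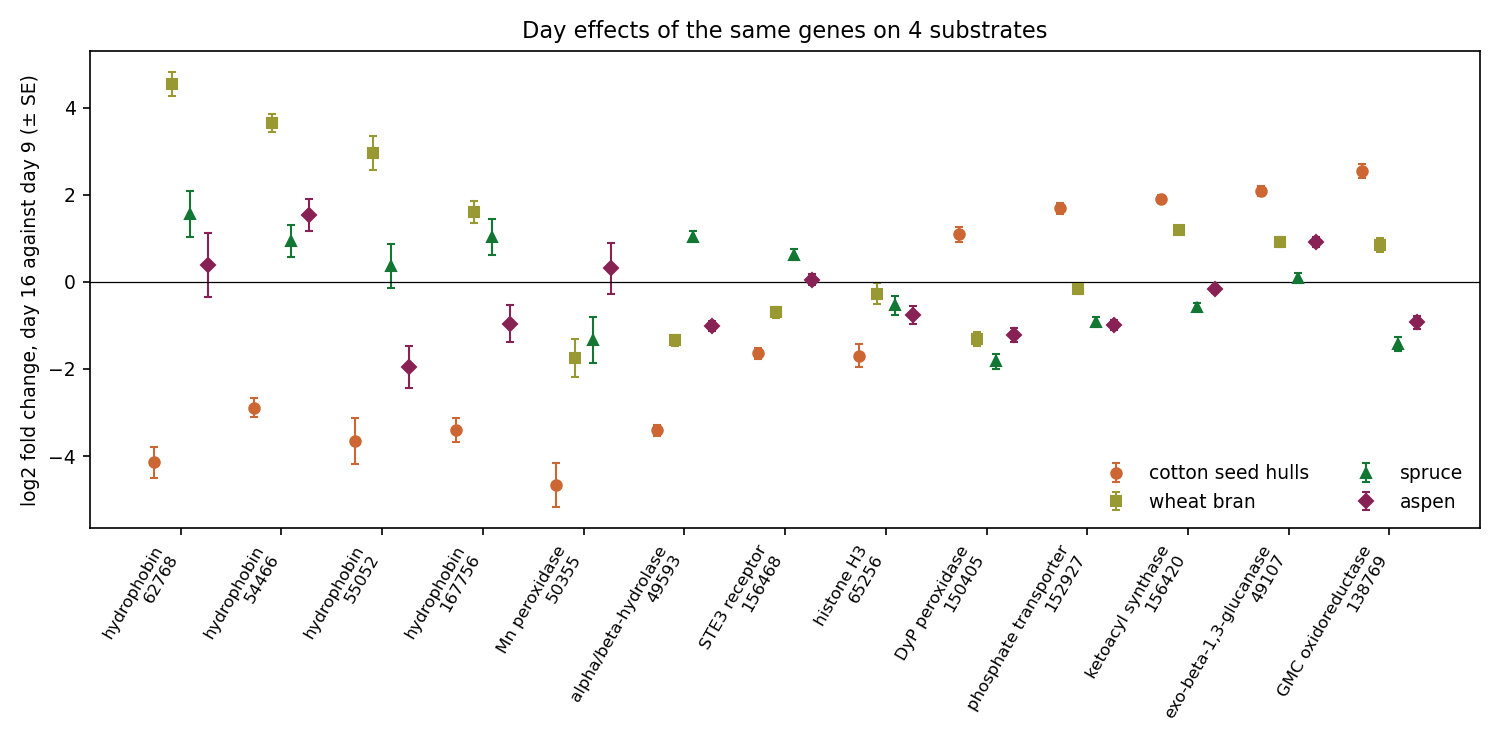
Log2 fold change from day 9 to day 16 (vertical axis, bars are SE of the fit) of 13 genes on cotton seed hulls, wheat bran, spruce and aspen. The 4 hydrophobins on the left fell on cotton seed hulls and rose on wheat bran, and the 5 genes on the right had their highest value on cotton seed hulls.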

How the data were processed

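Uniquely mapped read counts and RPKM per gene for 16 RNA libraries were deposited by the authors, with gene lengths and descriptions, per the file headers. The mapping program, genome build and strand setting were not given in the sources used here, so genes that overlap or have near-identical copies are uncertain. The deposited RPKM were recomputed from counts, lengths and library totals to within 5.1e-15. Counts were tested with edgeR 4.0.16 (TMM, quasi-likelihood, 8 groups, genes filtered at a minimum count of 10 and a total of 15) in R 4.3.3, and adjusted over all tested genes. Standard errors are the log2 fold change over the root of F. With 2 against 2 libraries the smallest exact permutation p is 0.333, so no single-gene permutation test was run. Replicate numbers did not pair the days (correlation of deviations -0.00654).

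Named genes were the 12 largest described and 2 largest undescribed changes in each direction with at least 10 RPKM and days that did not overlap, the most abundant and most changed member of each list, all members of lists of at most 6, the 10 most abundant genes of each day, the 4 largest described rises and falls among genes unlike all other substrates, and the longest neighbour runs. Not every gene the rule names is printed. The comparison, the gene lists and this rule were chosen with earlier results of these data known. Alternatives were RLE size factors, library size alone, no filter, DESeq2 1.42.0, limma 3.58.1 on log2(RPKM + 1) and log2(RPKM + 0.1), fewer libraries in the fit, a replicate block, leaving out each cotton seed hull library and, chosen after seeing the data, leaving out the short gene models. Scripts were tested on simulated counts. Of the 11410 genes with reads, 11371 matched a RefSeq locus tag and 4452 had an informative description. No sequence is shown.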

Additional observations from a re-analysis of the deposited data

Results flagged for a closer look

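By the interaction test, the change from day 9 to day 16 on cotton seed hulls differed from that on wheat bran in 994 genes, from that on spruce in 3664 and from that on aspen in 4927, and 345 genes differed from all 3 in the same direction.

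Of the genes named from that set, 4 had a day effect above that on wheat bran, each by the same interaction test with adjustment over all genes. The log2 difference was 1.70 ± 0.23 (SE, adjusted p = 0.000277) for the GMC oxidoreductase DICSQDRAFT_138769. It was 1.17 ± 0.15 (adjusted p = 9.88e-05) for the exo-beta-1,3-glucanase DICSQDRAFT_49107. For the ketoacyl synthase domain gene DICSQDRAFT_156420 it was 0.70 ± 0.12 (adjusted p = 0.00147), and for the phosphate transporter DICSQDRAFT_152927 it was 1.84 ± 0.16 (adjusted p = 3.14e-06).

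A further 4 had a day effect below that on wheat bran. The log2 difference was -2.92 ± 0.69 (adjusted p = 0.0299) for the manganese peroxidase DICSQDRAFT_50355 and -8.68 ± 0.44 (adjusted p = 9.27e-09) for the hydrophobin DICSQDRAFT_62768. It was -2.07 ± 0.17 (adjusted p = 1.85e-06) for the alpha/beta-hydrolase DICSQDRAFT_49593 and -5.02 ± 0.38 (adjusted p = 3.98e-05) for the hydrophobin DICSQDRAFT_167756.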

How the results depend on the processing

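Of 86 named genes called on cotton seed hulls, 64 kept their call and direction under every alternative run and 22 lost the call under at least 1, with none reversed. That tally leaves out genes printed only as members of small lists or chosen after their values were seen. Of these, DICSQDRAFT_183908, DICSQDRAFT_62647 and DICSQDRAFT_113070 also lost the call under at least 1 alternative. Scaling moved the split between directions. With library size alone, limma on log2(RPKM + 1) and limma on log2(RPKM + 0.1), in that order, 760, 780 and 803 genes were higher and 3024, 3104 and 3249 lower. In the same order the difference from wheat bran was called for 1628, 1535 and 1610 genes, above 0 for 270, 272 and 282 and below 0 for 1358, 1263 and 1328. Against spruce 1146, 1247 and 1176 lay above and 2730, 2786 and 2775 below 0, and against aspen 1466, 1608 and 1545 above and 4164, 4301 and 4292 below. Genes unlike all other substrates numbered 617, 602 and 638. Sign changes were common among named genes that were not called: of 24 such genes, 14 changed sign in some alternative. Among them, DICSQDRAFT_132822 (-0.10 in each) and DICSQDRAFT_133555 (-0.0420, -0.0415 and -0.0418) turned negative with library size alone and both limma fits, in the order above.

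Fitting the 4 cotton seed hull libraries alone gave 2097 higher and 2102 lower genes, and adding only wheat bran 2085 and 2082, with 2271 differences from wheat bran (1195 above, 1076 below 0). Leaving out 1 cotton seed hull library left 1798 to 2180 called genes (877 to 1062 higher, 909 to 1132 lower), 538 to 643 differences from wheat bran (275 to 338 above, 263 to 322 below 0), 199 to 256 genes unlike all others and 256 to 291 called genes in the lists, of 401. The replicate block gave 1724 higher and 1384 lower genes and 2969 of the 3003 calls. RLE size factors gave 1539 and 1415, DESeq2 1340 and 1226, and no filter 1611 and 1336. The cause of these shifts was not tested. With 2 libraries a day, single calls near the threshold rest on few values.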

Other observations

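A further 3 gene groups were chosen after their values were seen, so their counts are a description only. The first was the secretory pathway. Of its 41 tested genes 15 were higher on day 16 and 1 was lower, beside 15.7% and 12.7% of all genes. The median log2 fold change was 0.22 against 0.03 over all genes. With library size alone 10 were higher and 11 lower, with a median of -0.03, so no direction is given for the group. The SecY-type translocation pore DICSQDRAFT_174302, through which new secretory proteins enter the endoplasmic reticulum, was read at 253 and 255 RPKM on day 9 and at 393 and 389 RPKM on day 16 (log2 0.87 ± 0.09, edgeR adjusted p = 2.78e-06). Calnexin DICSQDRAFT_45908, a folding chaperone of that compartment, rose from 672 and 685 RPKM to 1095 and 1001 RPKM (log2 0.88, adjusted p = 2.70e-06).

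Signalling and sterol genes were mixed. Of 12 genes for G-protein and cAMP signalling 3 rose and 4 fell (2 and 7 with library size alone), among them the G-protein alpha subunit DICSQDRAFT_134393, which fell from 96.7 and 107 RPKM to 39.2 and 40.2 RPKM (log2 -1.11, adjusted p = 3.76e-08). The regulatory subunit of the cAMP-dependent kinase, DICSQDRAFT_179546, fell by 0.86 on the log2 scale. Of 18 genes of the mevalonate and sterol route 3 rose and 3 fell (1 and 7 with library size alone). HMG-CoA reductase DICSQDRAFT_102019, the early control point of the route, rose from 48.3 and 52.8 RPKM to 103 and 104 RPKM (log2 1.29, adjusted p = 0.000228), whereas squalene synthase DICSQDRAFT_125356, the first enzyme committed to sterols, went from 94.3 and 95.5 RPKM to 53.7 and 57.2 RPKM (log2 -0.52).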
